A study of Mus musculus with 4 samples.

Results

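The basement membrane genes described here are Lama1, Lamb1, Lamc1, Col4a1, Col4a2, Nid1, Sparc and Fn1, 8 of the 32285 genes in a single-cell count matrix of mouse embryonic stem cells (mESC). They were picked by gene symbol and not by their values, though with earlier results of these data known. All 8 were detected in every library. The study asked how a reduced dose of Srrm2, a gene for a spliceosome protein, alters the pluripotent state. It profiled E14tg2a.4, a male mESC line (WT), and Srrm2 hKO, line CG0630, in which a gene trap truncates a single Srrm2 allele. Srrm2 hKO is 1 clonal line made from E14tg2a.4, so both groups share that genetic background. Both were grown on gelatin with LIF, the cytokine that sustains mESC self-renewal. The labels give 24 h or 72 h in serum-free medium before collection and do not say which applied to a sample, while the single-cell methods of the study state a growth time that is neither of these, so no time was assigned. The labels give no age or further treatment.

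The labels list 2 WT and 2 Srrm2 hKO samples. The matrix joins 4 libraries, and a cell carries a library number from 1 to 4 that no source used here ties to a labelled sample. Srrm2 hKO was therefore not compared with WT, and every value below belongs to a numbered library. Each library is 1 culture, so differences between libraries carry no replicate error, and no p-value was computed. The cell filter that the study describes, applied again here, kept 31989 of 41142 barcodes, slightly more cells than the study states, or 8118, 8514, 7893 and 7464 cells in libraries 1 to 4. Kept cells had a median of 18378 to 21898 unique molecular identifiers (UMIs, the counted molecules). Srrm2 itself stood at 387, 533, 238 and 356 UMIs per 1000000 UMIs (counts per 1000000, CPM) in libraries 1 to 4, and was not used to assign a library. The pluripotency genes Pou5f1, Sox2, Nanog, Sall4 and Zfp42 summed to 1592 to 2038 CPM. Among the kept cells, 105 barcode sequences occurred in more than 1 library, in 211 cells.

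Basement membranes are thin sheets of extracellular matrix that underlie epithelia. Laminin, a trimer of an alpha, a beta and a gamma chain, and type IV collagen each form a network, and nidogen links the networks. In the early mouse embryo the epiblast rests on such a sheet, to which the extraembryonic endoderm adds much of the laminin and collagen. SPARC is a secreted collagen-binding protein, and fibronectin is a matrix glycoprotein bound by integrins.

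In the GRCm38 annotation (GENCODE vM21) the laminin genes lie apart. Lama1 is at chr17:67697259-67822647 on the plus strand, Lamb1 at chr12:31265234-31329644 on the plus strand and Lamc1 at chr1:153218922-153332786 on the minus strand. Nid1 is at chr13:13437551-13512269 on the plus strand, Sparc at chr11:55394500-55423183 on the minus strand and Fn1 at chr1:71585520-71653200 on the minus strand. The collagen genes are neighbours that are transcribed away from each other. Col4a1 spans chr8:11198423-11312826 on the minus strand and Col4a2 spans chr8:11312805-11449287 on the plus strand. Their annotated first exons overlap by 22 bases. The stretch is shown because Col4a1 and Col4a2 tended to occur in the same cells (described below), though its part in this was not tested. It is taken from the RefSeq promoter table (GRCm38.p6), chr8:11312801-11312830, plus strand, and the capitals mark the bases between the start of Col4a2 (first capital) and the start of Col4a1 (last capital, read on the minus strand).
Col4a1 and Col4a2 shared start: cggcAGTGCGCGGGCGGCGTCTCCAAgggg

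Promoter windows (250 bases before to 50 after the start) could be matched for 5 of the 8 genes: Col4a1, Col4a2, Lamb1, Nid1 and Sparc. GGGCGG, searched on both strands, occurred in the windows of Col4a1, Col4a2, Lamb1 and Nid1 and in 35.7% of all 32851 windows. CCAAT occurred in the same 4 windows and in 37.4% of all windows. The windows of Col4a1 and Col4a2 overlap, and the GGGCGG in the stretch shown above lies in both. Whether they share a CCAAT match was not read. The CArG box, the motif of serum response factor, was found in 0 of the 5 windows and in 1.63% of all windows, and TATAAA in 0 of the 5 and in 13.6% of all.

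The 8 genes did not differ between libraries in a common direction. Type IV collagen and Sparc were highest in library 3, Lama1 and Fn1 in library 1, Nid1 in library 2 and Lamb1 in library 4, while Lamc1 was nearly level. The level of 7 of the 8 genes differed at least 1.5-fold between the highest and the lowest library, as did 54.8% of the 15819 genes tested. The median fold was 2.10 over the 8 genes and 1.57 over all genes tested. Each level below is in CPM over the kept cells, and its 95% Poisson interval covers counting error only. Because UMIs were counted at the 3′ ends of transcripts, levels are compared between libraries and are not ranked between genes.

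Lama1, the laminin alpha 1 chain, was at 9.55, 7.34, 5.39 and 5.0 CPM in libraries 1 to 4. It fell 1.91-fold from library 1 to library 4 (1.76 to 2.08), and libraries 3 and 4 did not differ beyond counting error (ratio 1.08, 0.982 to 1.18). Lamb1, the beta 1 chain, ran the other way at 19.0, 32.0, 26.0 and 34.2 CPM, 1.80-fold higher in library 4 than in library 1 (1.73 to 1.88). Lamc1, the gamma 1 chain, was at 41.6, 41.2, 44.1 and 38.1 CPM, a range of 1.16-fold. The UMIs of these 3 chain genes therefore did not keep a fixed proportion, which is a statement on mRNA and not on protein. Lama1 made up 13.6%, 9.11%, 7.14% and 6.47% of the UMIs of the 3 chains in libraries 1 to 4, and Lamb1 27.1%, 39.8%, 34.4% and 44.3%. The sum of the 3 chains moved less, with library 1 lowest (70.1 CPM) and library 2 highest (80.5 CPM).

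Col4a1, the type IV collagen alpha 1 chain, was at 1.92, 3.46, 14.7 and 9.01 CPM in libraries 1 to 4. Its partner Col4a2, the alpha 2 chain, was at 1.10, 1.14, 9.40 and 3.83 CPM. Both were lowest in library 1 and highest in library 3, by 7.64-fold for Col4a1 (6.80 to 8.61) and 8.57-fold for Col4a2 (7.35 to 10.0). Libraries 1 and 2 did not differ in Col4a2 beyond counting error (ratio 1.04, 0.851 to 1.27). The UMIs of Col4a1 per UMI of Col4a2 were 1.75 (1.45 to 2.11), 3.04 (2.61 to 3.54), 1.56 (1.46 to 1.66) and 2.35 (2.15 to 2.58) in libraries 1 to 4. Libraries 1 and 3 thus did not differ in this ratio beyond counting error, while libraries 2 and 4 lay above both.

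Nid1, the nidogen that bridges laminin and collagen, was at 18.1, 24.6, 12.6 and 9.91 CPM, and library 2 exceeded library 4 by 2.48-fold (2.35 to 2.62). Sparc was at 80.3, 96.4, 184 and 103 CPM, 2.29-fold higher in library 3 than in library 1 (2.24 to 2.34). Fn1 was at 213, 193, 180 and 130 CPM, 1.64-fold higher in library 1 than in library 4 (1.61 to 1.67). Sparc and Fn1 together held 70.0% to 76.4% of the UMIs of the 8 genes, so the sum of the 8 (385, 399, 476 and 334 CPM) mainly shows these 2 genes.

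**Figure D1:**
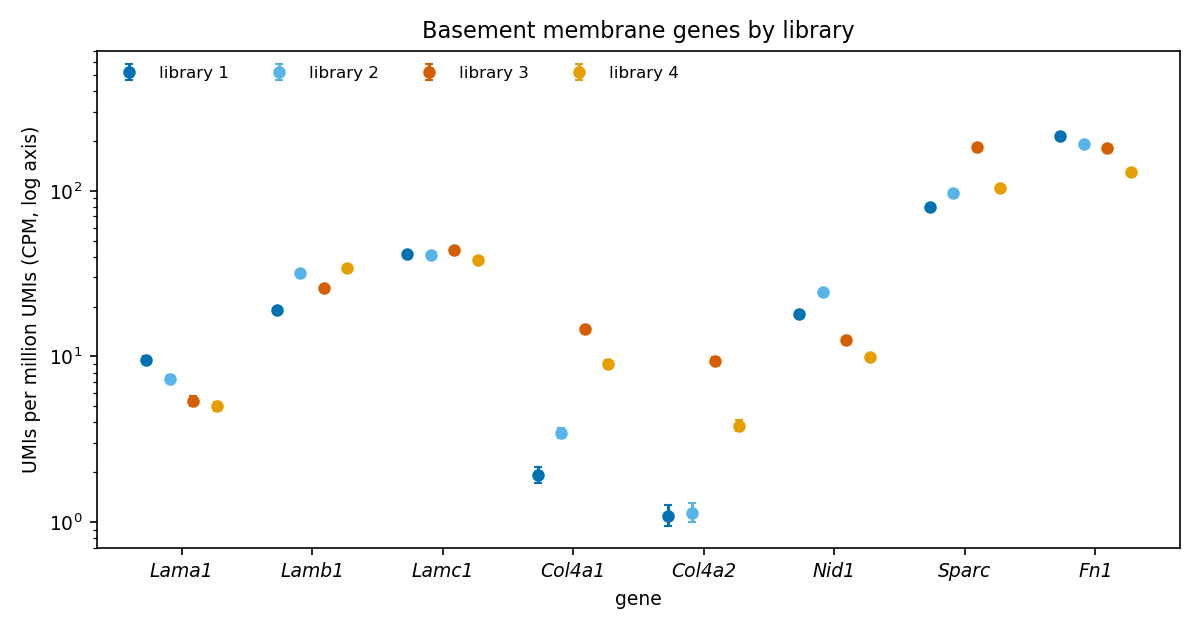
Level of each basement membrane gene in libraries 1 to 4, in CPM of kept cells on a log axis. Points are library levels and bars are 95% Poisson intervals (counting error), many of them smaller than the point. Col4a1 and Col4a2 spread most, from 1.92 to 14.7 CPM and from 1.10 to 9.40 CPM, and Lamc1 spread least, from 38.1 to 44.1 CPM.

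The libraries held different mixtures of pluripotent states, and the genes were therefore read along the naive to formative course. Naive cells resemble the epiblast before implantation, and formative cells are a step nearer to lineage choice. Each cell was placed by its naive share, the UMIs of a naive panel (Zfp42, Klf2, Klf4, Klf5, Nanog, Tbx3, Esrrb, Tfcp2l1, Nr5a2 and Prdm14) over those of that panel plus a formative panel (Otx2, Fgf5, Pou3f1, Dnmt3a, Dnmt3b, Lef1, Tcf15, Zic2, Sall2 and Sox3). None of the 8 genes is in a panel. Cells with a share below 0.5 (formative side) numbered 312, 1817, 1295 and 4065 in libraries 1 to 4, and those at 0.5 or more (naive side) 7806, 6697, 6591 and 3399. The share is a scale and not a cell type, and 1173 cells lay between 0.45 and 0.55.

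Lama1 and Nid1 were lower on the formative side in every library, and Col4a1 was higher. A gene was counted when all 4 libraries showed a difference of 1.5-fold or more between the sides, with 1 sign. By this rule 1 of the 8 genes was higher on the formative side (9.44% of the 12254 genes tested) and 2 were lower (6.08% of them). With a threshold of 2-fold in place of 1.5-fold, Lama1 alone was counted (4.10% of all genes higher, 3.03% lower), and with quartiles of the share within each library Nid1 was not (0.814% lower). The ratios of the formative to the naive side for Lama1 were 0.100, 0.223, 0.403 and 0.199 in libraries 1 to 4, and their 95% intervals ran from 0.0432 to 0.198, from 0.177 to 0.277, from 0.317 to 0.506 and from 0.168 to 0.236. Nid1 gave 0.166, 0.210, 0.559 and 0.235. Col4a1 gave 8.26, 6.1, 3.05 and 1.70, the last with an interval of 1.53 to 1.89 and at 2.92 without 23 cells with endoderm factors. These are the kept cells with UMIs of at least 2 of Gata4, Gata6, Sox17, Sox7, Foxa2 and Pdgfra, genes of the primitive endoderm, and they were set apart after seeing the data.

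Along the 4 ranges of the share, Lama1 rose step by step in each library. In library 4 it was at 1.45 CPM in cells with a share below 0.25, 2.55 CPM from 0.25 to 0.5, 7.65 CPM from 0.5 to 0.75 and 10.2 CPM at 0.75 or more. In the top range it was at 10.3, 10.1, 6.54 and 10.2 CPM in libraries 1 to 4, so the 1.91-fold excess of library 1 over library 4 became 1.00-fold among these cells. Nid1 rose the same way, from 2.66 to 31.9 CPM between the outer ranges in library 2 and from 2.5 to 19.3 CPM in library 4. In the top range it was at 19.1, 31.9, 14.0 and 19.3 CPM, with library 2 still highest but library 3 now lowest (2.28-fold), and libraries 1 and 4 side by side.

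Fn1 also fell on the formative side in 3 of the 4 libraries, with ratios of 0.430, 0.575 and 0.518 in libraries 1, 2 and 4, but was at 0.918 in library 3. Below a share of 0.25 it was at 76.1, 90.6, 140 and 73.8 CPM. Lamb1 was higher on the formative side in libraries 1 and 3 (1.97-fold and 1.91-fold) and nearly level in libraries 2 and 4 (1.15-fold and 1.03-fold). Lamc1 gave 0.753 to 0.973. Lama1, Lamb1 and Lamc1 thus differed from each other along this scale. Lama1 fell by a larger factor than Lamc1 in each library, and Lamb1 did not fall in any. Nor did the alpha chain gene Lama5, with ratios of 2.13, 1.09, 1.66 and 1.10 in libraries 1 to 4.

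Col4a2 followed Col4a1 in libraries 1 to 3, with ratios of 10.2, 4.40 and 2.57, but stood at 1.10 in library 4 (0.939 to 1.29), which kept it out of the count. Without the cells with endoderm factors that ratio was 1.95 and Col4a2 was counted. Sparc gave 1.73, 0.813, 2.28 and 1.06, with no common direction. Levels of Sparc were highest in the middle range from 0.25 to 0.5 in libraries 1, 3 and 4, at 174, 389 and 133 CPM. In that range the contractile and keratin genes described next were also at their highest in all 4 libraries, at 984, 187, 2491 and 589 CPM. Lists of other cell types also differed between the outer ranges. Below 0.25 the fibroblast list was at 7.09 to 24.6 CPM over the libraries, against 1.77 to 6.08 CPM at 0.75 or more. For primitive endoderm this was 6.30 to 12.2 against 2.53 to 4.34 CPM. The trophectoderm list was at 10.5 to 14.5 against 48.8 to 66.9 CPM, and the endothelial list at 2.10 to 6.41 against 17.8 to 27.1 CPM. Their part in the levels was not tested.

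**Figure D2:**
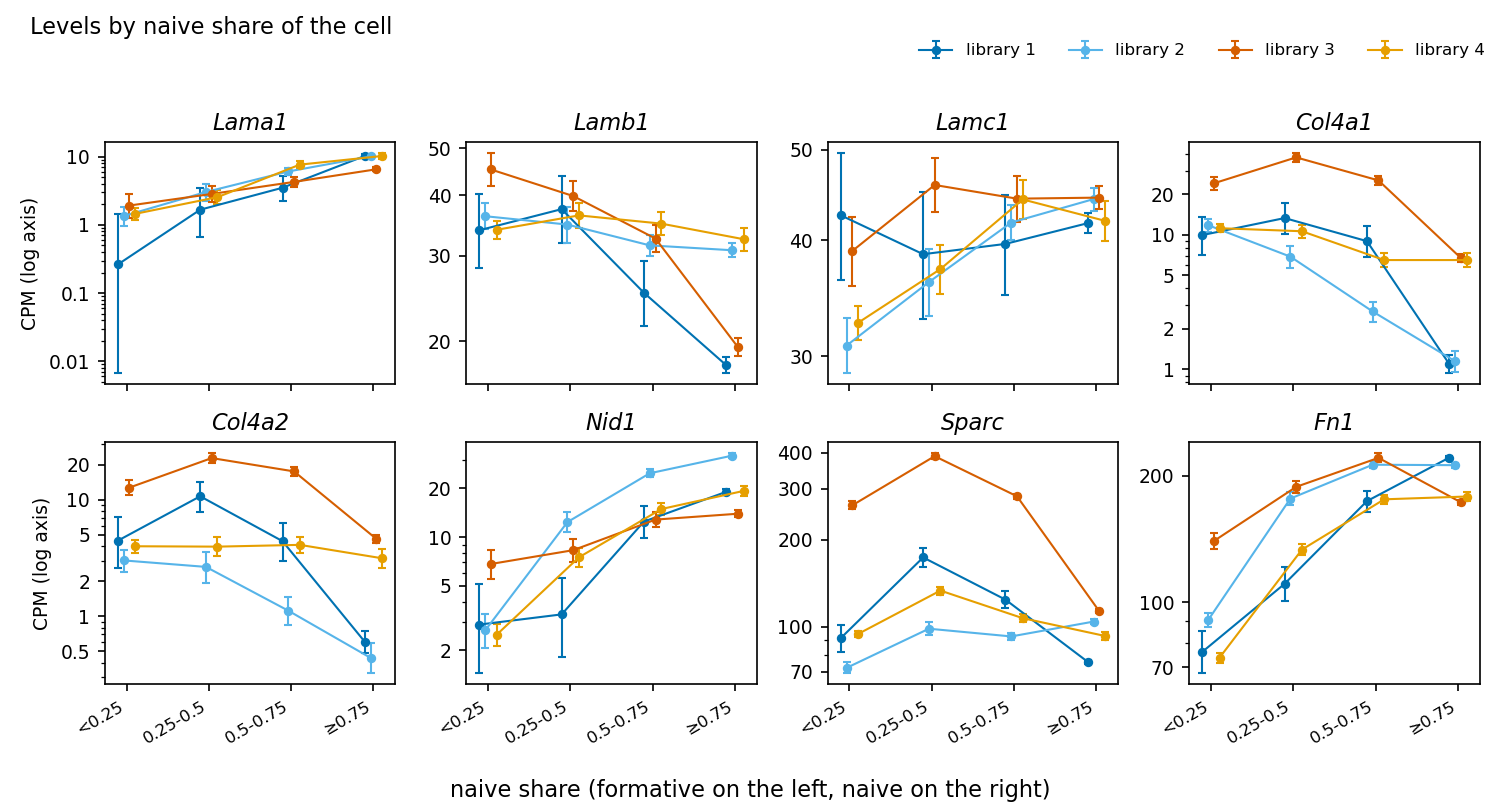
Level of each gene (CPM, log axis) in 4 ranges of the naive share, by library, with 95% Poisson intervals (counting error). Lama1, Nid1 and, less steadily, Fn1 climb towards the naive side on the right, Col4a1 is higher on the formative side on the left (peaking at a share of 0.25 to 0.5 in libraries 1 and 3), and Lamc1 stays between 30.8 and 45.9 CPM.

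Some of the cells, most of them in libraries 3 and 4, carried high levels of contractile and keratin genes (Krt8, Krt18, Acta2, Tagln, Cnn1, Actg2 and Acta1), which encode cytoskeletal proteins of epithelial and muscle-like cells. Cells with at least 500 CPM of this list numbered 88, 71, 885 and 565 in libraries 1 to 4, and 334 cells lay between 400 and 600 CPM. They are described by that list and not as a cell type. Libraries 1 and 2 had under 100 such cells, so genes were counted from libraries 3 and 4.

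Type IV collagen and Sparc were higher in these cells by larger ratios than the other 5 genes. By the same 1.5-fold rule 4 of the 8 genes were higher in cells with at least 500 CPM of the list (14.9% of the 12784 genes tested), namely Col4a1, Col4a2, Sparc and Nid1, and 0 were lower (8.99% of those tested). Col4a1 was at 83.0 CPM in the high cells and 3.02 CPM in the others of library 3, and at 49.1 and 5.34 CPM in library 4. Its ratios were 26.9, 23.7, 27.5 and 9.21 in libraries 1 to 4. Those of Col4a2 were 32.2, 46.0, 41.7 and 14.4.

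Sparc was at 887 against 64.0 CPM in library 3 and at 357 against 80.2 CPM in library 4. Its ratios in libraries 1 to 4 were 6.63, 5.70, 13.9 and 4.45, and the high cells thus held more Sparc in all of them. Nid1 was less uniform, with 2.35 and 1.63 in libraries 3 and 4, 1.41 in library 2 and 0.381 in library 1. When a minimum of 20 cells let all 4 libraries count, a choice made after seeing the data, Col4a1, Col4a2 and Sparc remained and Nid1 did not. Nid1 was also not counted with a threshold of 2, or without the cells with endoderm factors.

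The laminin chains and Fn1 did not pass the rule at 500 CPM. With a limit of 2000 CPM 6 genes passed, Lamb1 and Fn1 among them (18.4% of all genes tested), and among cells with a naive share of 0.5 or more 5 passed, Lamb1 among them (18.6%). Lamb1 gave 1.94, 2.27, 2.92 and 1.40, Lamc1 0.833, 1.12, 1.06 and 1.16, and Lama1 0.151, 1.60, 0.853 and 1.08, the first of these from 4 UMIs. The last became 0.222 without the cells with endoderm factors. Fn1 was 2.66-fold higher in the high cells of library 3 but gave 0.818, 1.09 and 0.931 in libraries 1, 2 and 4.

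Over 4 ranges of the list the genes did not follow a common course. Col4a1, Col4a2 and Sparc rose over the whole scale. In library 3 Sparc went from 55.9 CPM in cells below 100 CPM of the list to 123, 455 and 1099 CPM in the ranges from 100 to 500, from 500 to 2000 and at 2000 or more, and Col4a1 from 2.35 to 7.94, 27.5 and 110 CPM. Nid1 and Fn1 first fell and then rose. Fn1 went from 149.8 to 110 CPM and then to 186 and 482 CPM in library 3, and in library 4 from 149.3 to 83.7 and 69.6 and then to 238 CPM. Nid1 in library 4 went from 11.6 to 3.70, 4.98 and 38.3 CPM. Lama1 also fell from the lowest range to the next in all 4 libraries, from 9.87 to 3.02 CPM in library 1. Lamb1 was higher in the top range than in the lowest in all 4 libraries, going from 18.6 to 32.5, 49.7 and 64.0 CPM in library 3, and Lamc1 stayed between 32.5 and 55.4 CPM over all ranges and libraries.

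In cells with at least 2000 CPM of the list (42, 27, 581 and 169 cells), the libraries were closer together in type IV collagen and Sparc than over all kept cells, but farther apart in Nid1, Fn1 and Lamc1. In Lamb1 the range was 1.33-fold, with an interval (0.891 to 1.99) that takes in the 1.80-fold of all kept cells. Col4a1 was at 66.9, 85.4, 110 and 120 CPM there and Col4a2 at 40.5, 63.0, 75.7 and 69.9 CPM. Sparc was at 784, 774, 1099 and 688 CPM, so even the 42 cells of library 1 exceeded the 73.6 CPM of the cells below 500 CPM of the list in that library. Nid1 was at 9.34, 72.8, 31.8 and 38.3 CPM, a range of 7.79-fold against 2.48-fold over all kept cells. The range of Fn1 was 2.03-fold against 1.64-fold. Lama1 was at 2.33, 8.40, 5.93 and 14.3 CPM, from 3 and 6 UMIs in libraries 1 and 2, and its level in library 4 became 0.677 CPM (3 UMIs) without 5 cells with endoderm factors. Without such cells Col4a1 of library 4 was at 75.3 CPM, Col4a2 at 43.8 CPM and Sparc at 569 CPM. Lists of other cell types also differed along this scale, in both directions. From the lowest to the highest range the primitive endoderm list (12 genes) went from 2.61 to 5.09 CPM up to 10.9 to 30.3 CPM over the libraries, and the fibroblast list (8 genes) from 1.54 to 5.02 CPM up to 39.2 to 91.8 CPM. The core pluripotency list fell from 1816 to 2075 CPM down to 541 to 735 CPM and the endothelial list from 13.7 to 26.3 CPM down to 3.89 to 14.0 CPM. The trophectoderm list went from 53.6 to 42.0 CPM in library 1 but rose in the others, from 41.1 to 90.4 CPM in library 3. Over all kept cells most UMIs of the trophectoderm list came from Tfap2c and most of the endothelial list from Pecam1, as given above. Their genes were not read singly in these ranges. The part of these lists in the levels of the 8 genes was not tested.

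**Figure D3:**
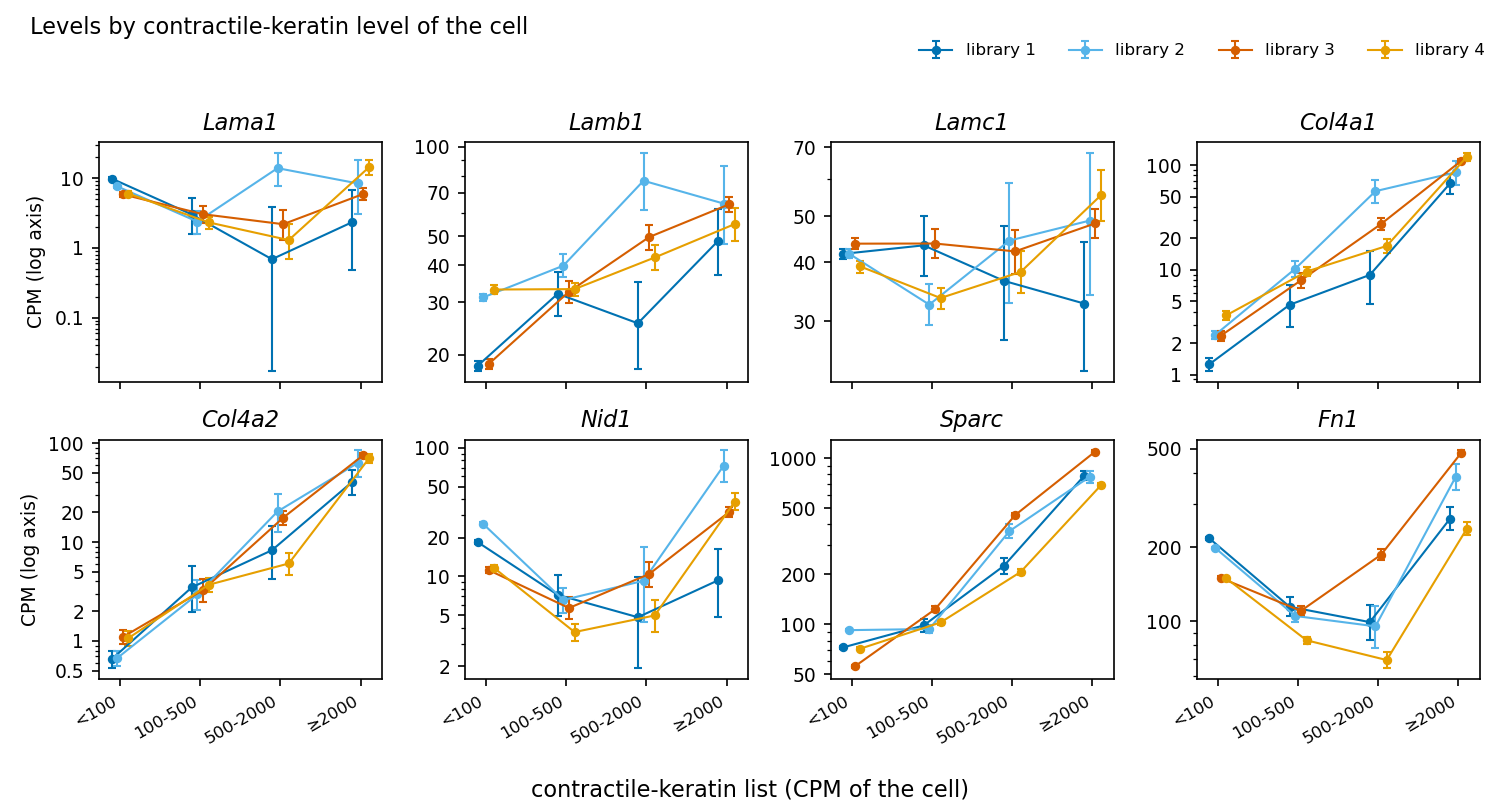
Level of each gene (CPM, log axis) in 4 ranges of the contractile and keratin list in the cell, by library, with 95% Poisson intervals (counting error). Col4a1, Col4a2 and Sparc rise from left to right in the libraries, with Sparc of library 3 going from 55.9 to 1099 CPM, while Nid1 and Fn1 dip in the middle ranges.

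Among cells with little of the list, Sparc was not highest in library 3 and the collagen levels of the libraries lay closer together. In the 27065 cells below 100 CPM of the list, a subset chosen after seeing the data, Sparc was at 72.9, 92.4, 55.9 and 71.5 CPM in libraries 1 to 4. Library 3, highest over all kept cells, was lowest among them, and its ratio to library 1 turned from 2.29 to 0.767. The range of Col4a1 between libraries narrowed from 7.64-fold to 2.93-fold, with 1.26, 2.39, 2.35 and 3.68 CPM, and that of Col4a2 from 8.57-fold to 1.68-fold, with 0.651, 0.671, 1.10 and 1.07 CPM. Restricting further to a naive share of 0.75 or more (18720 cells) left Col4a1 at 0.954, 1.10, 1.37 and 1.03 CPM.

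Lamb1 and Nid1 kept ranges between libraries in these cells that were as large as over all cells. Lamb1 was at 17.7, 30.6, 16.7 and 31.6 CPM in the 18720 cells, still higher in libraries 2 and 4 than in libraries 1 and 3, by up to 1.89-fold. Nid1 was at 19.1, 31.9, 12.8 and 18.4 CPM, with library 2 highest as over all cells and a range of 2.5-fold. Other ranges narrowed. Fn1 was at 221, 212, 156 and 178 CPM, a range of 1.42-fold against 1.64-fold over all cells, with library 3 now lowest. That of Lama1 was 1.56-fold against 1.91-fold, and that of Lamc1 1.07-fold against 1.16-fold.

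**Figure D4:**
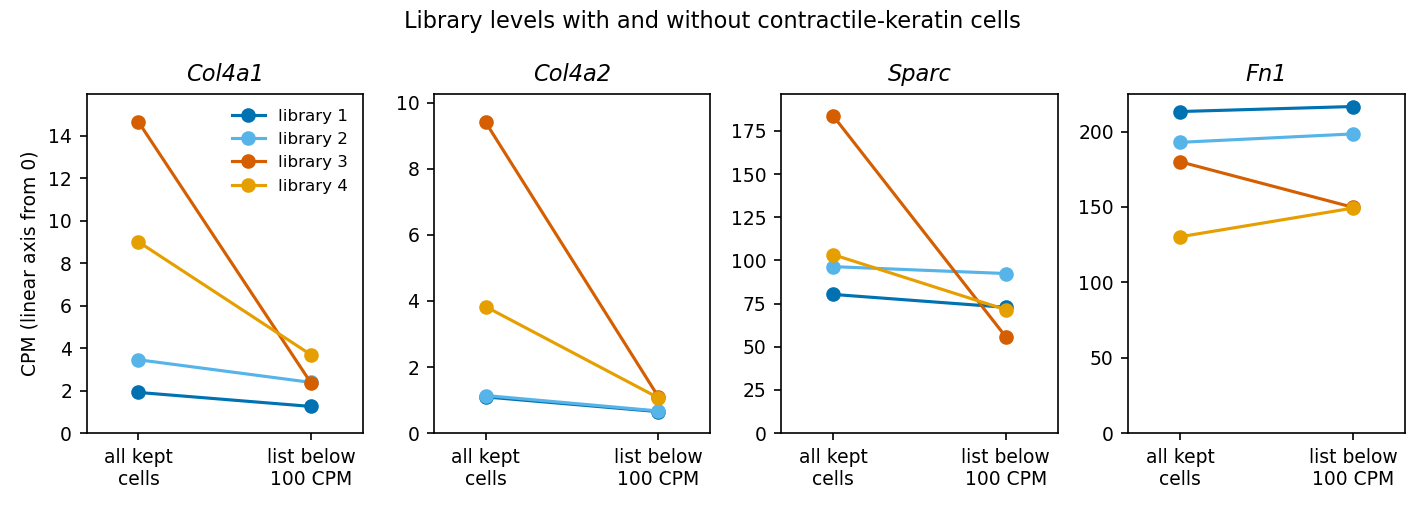
Level (CPM, linear axis from 0) of Col4a1, Col4a2, Sparc and Fn1 in each library over all kept cells (left of each panel) and over cells below 100 CPM of the contractile and keratin list (right). Library 3 drops from the highest Sparc level (184 CPM) to the lowest (55.9 CPM), and the collagen levels of libraries 3 and 4 come down to 1.07 to 3.68 CPM.

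By the 1.5-fold rule none of the 8 genes was counted for cell cycle position. Cells at or above their library's median share of 14 G2/M genes were set against the cells below it, and 0 of the 8 genes were counted higher (0.416% of the 12254 genes tested) and 0 lower (0.122%). Lama1 gave 1.58, 1.14, 1.37 and 1.16, above 1 in all 4 libraries. Col4a1 gave 0.694, 0.768, 0.312 and 0.773 and Col4a2 0.703, 0.561, 0.312 and 0.621, both below 1 in all 4. Sparc was also below 1 in all 4, at 0.865, 0.871, 0.368 and 0.833. The ratios of these 3 genes in library 3 were farther from 1 than in the other libraries, and also farther than those between the formative and the naive side. Lamc1 gave 1.03 to 1.09.

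The spread from cell to cell was compared after each cell was thinned to 5000 UMIs. The excess variance, the variance minus the mean over the squared mean, is 0 for a gene that varies only by random counting. Lamc1 was close to that in libraries 1 to 3, with excess variances of 0.0208, 0.0507 and 0.0687, but not in library 4, at 0.325. It had a UMI in 18.3%, 18.3%, 19.2% and 17.2% of cells, where random counting gives 18.3%, 18.4%, 19.4% and 17.6%. Over the 7071 to 7398 genes with a mean of at least 0.05 UMI the median excess was 0.0935, 0.0957, 0.137 and 0.122. All 8 genes but Lamc1, which exceeded it in library 4 only, were above this median in every library, although Lama1, Col4a2 and, outside library 3, Col4a1 fell under the mean of 0.05 UMI at which the median was taken. The share of all genes above the median in every library was not taken, so this count cannot be set against one.

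Sparc was shared unevenly between the cells of library 3. A UMI was found in 29.9% of the cells there (28.9% to 30.9%) where random counting at its mean gives 57.9%, and the 5% of cells with most Sparc held 60.1% of its UMIs. The top 5% of cells held 34.1%, 28.6% and 35.0% in libraries 1, 2 and 4. Although its mean per thinned cell was higher than in library 1 (0.866 against 0.396 UMI), the share of cells with a UMI was alike, at 29.5% in library 1 (28.5% to 30.5%). The excess variance of Sparc was 1.66, 1.21, 8.31 and 4.99 in libraries 1 to 4. Without the cells with endoderm factors it was 1.65, 1.05, 8.37 and 1.88, so the value of library 4 fell on leaving out 6 cells. Fn1 was found in 62.8%, 58.5%, 51.5% and 43.8% of cells and had excess variances of 0.145, 0.221, 1.23 and 0.474.

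The collagen genes were found in few cells. Col4a1 had a UMI in 0.788%, 1.41%, 4.46% and 3.52% of the cells of libraries 1 to 4, and Col4a2 in 0.394%, 0.388%, 3.08% and 1.37%. Lama1 had one in 4.32%, 3.76%, 2.75% and 2.04%. No cell type that lacks these genes was at hand to measure free RNA in the droplets. The level in the cells where a gene was lowest bounds it from above, for Col4a2 at 0.369 to 0.721 CPM in the naive cells below 100 CPM of the list.

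Col4a1 and Col4a2 tended to occur in the same cells. Correlations of thinned, log-transformed counts over the cells of a library are given as a description, since all cells of a library share its processing and low counts weaken every r. Of the 28 pairs among the 8 genes, Col4a1 with Col4a2 was the only pair with r of at least 0.1 in every library, at 0.122, 0.103, 0.347 and 0.261. They were found together 15.9, 10.8, 8.58 and 6.12 times as often as independent detection would give, in 4, 5, 93 and 22 cells. Without the 23 cells with endoderm factors r was 0.122, 0.0797, 0.342 and 0.158, so that in library 2 the pair no longer reached 0.1. At 10000 UMIs per cell, in the 7967, 8315, 7665 and 7190 cells with that many UMIs, r was 0.196, 0.211, 0.589 and 0.378. Among the laminin chains, whose products assemble into a common trimer, r stayed between -0.00824 and 0.0235 at 5000 UMIs and between 0.00471 and 0.0557 at 10000 UMIs.

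In library 3 more of the genes varied together. Col4a1 with Sparc reached 0.434 there against 0.0634, 0.0556 and 0.144 in libraries 1, 2 and 4, Col4a2 with Sparc 0.366, Sparc with Fn1 0.264 and Lamb1 with Sparc 0.212. Library 3 also had the most cells with at least 500 CPM of the contractile and keratin list. Outside the 8 genes, 6554 genes were ranked by their lowest correlation with the sum of the 8 over the 4 libraries. The 10 most alike were Sptan1, Dst, S100a6, Pdgfa, Vim, S100a10, Actn1, Malat1, Ahnak and Sptbn1, with lowest values from 0.0446 to 0.0617, which are weak. Sptan1 and Sptbn1 are spectrins, Vim is the intermediate filament protein vimentin and Actn1 is an actin crosslinker. In library 3 S100a6 reached 0.488 and Vim 0.413.

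**Figure D5:**
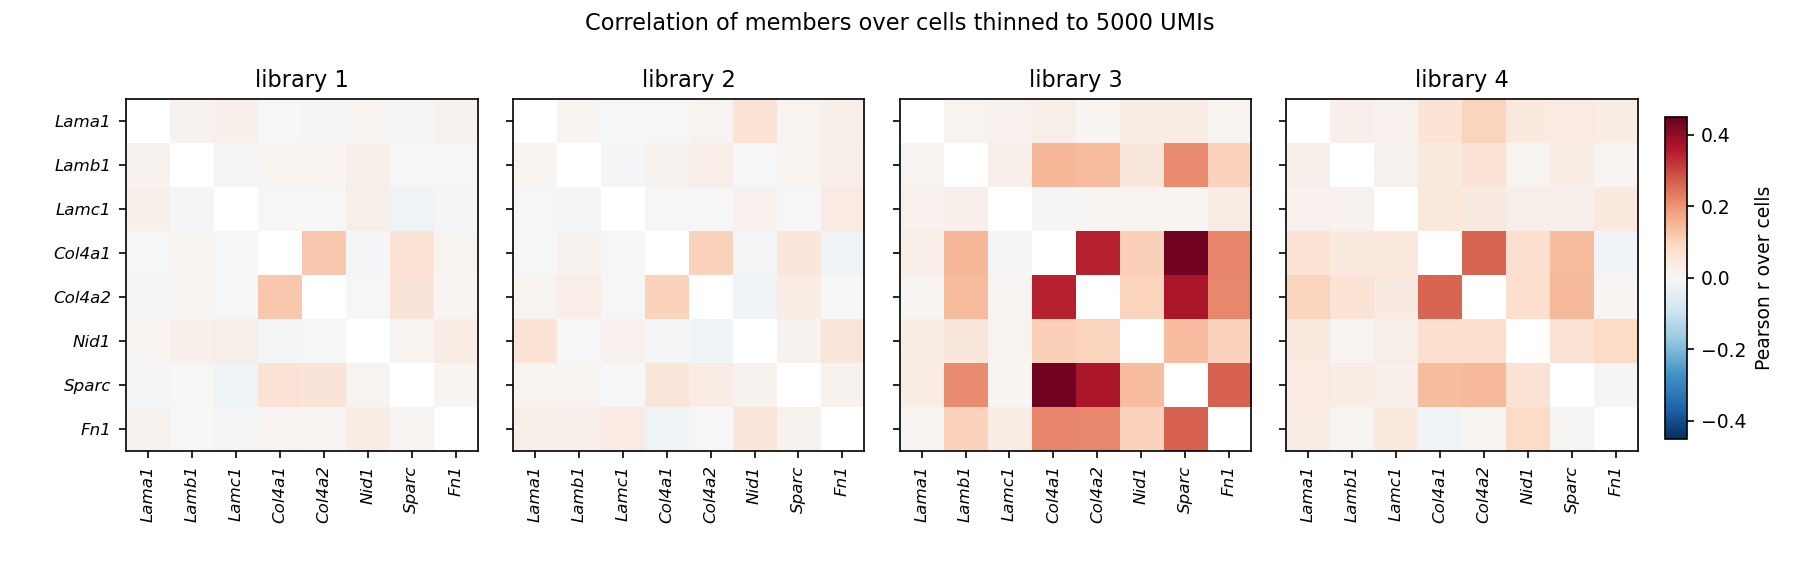
Pearson correlation between the 8 genes over the cells of each library, after thinning to 5000 UMIs (red above 0, blue below, diagonal left white). Col4a1 with Col4a2 is at 0.103 to 0.347 (in library 2 0.103, and 0.0797 without the cells with endoderm factors), and in library 3 Sparc joins them (0.434 with Col4a1).

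The cells with the highest sum of the 8 genes differed between libraries. The top 5% of cells held 10.6%, 10.5%, 35.6% and 15.5% of the UMIs of the 8 genes in libraries 1 to 4. In library 3, 96.7% of these top cells had at least 500 CPM of the contractile and keratin list, against 6.71% of the other cells. The corresponding shares were 7.39%, 4.46% and 32.6% of the top cells in libraries 1, 2 and 4. With Fn1 and Sparc left out of the sum, the top 5% held 14.6%, 13.6%, 26.1% and 18.1% of its UMIs. Of those top cells 2.96%, 3.52%, 82.5% and 21.4% had at least 500 CPM of the list. In the top cells of library 3 by the sum of the 8, the core pluripotency list was at 368 CPM against 1662 CPM in the others. The primitive endoderm list was at 48.3 against 4.53 CPM and the fibroblast list at 185 against 2.40 CPM. Of the primitive endoderm list Dab2 alone was at 33.1 against 1.59 CPM. Gata6 was at 7.08 against 0.178 CPM and Sox17 at 6.01 against 0.0920 CPM, but Gata4 at 0.429 (4 UMIs) against 0.313 CPM. The other genes of that list were not read singly in the top cells. Of the fibroblast list Col1a1 was at 67.8 against 0.251 CPM in these cells, Col1a2 at 84.4 against 0.582 CPM and Col3a1 at 21.4 against 0.147 CPM. Lum had 1 UMI there and 0 UMIs in the top cells of libraries 1, 2 and 4. Dcn, Thy1, Pdgfrb and Postn of that list were not read singly in the top cells. Over all kept cells of library 3 they were at 0.0812, 1.16, 0.209 and 0.505 CPM. Thy1 was lowest in library 3 and highest in library 4 (5.14 CPM). The fibroblast list in the top cells of library 1 was at 15.6 CPM, of library 2 at 10.9 CPM and of library 4 at 35.1 CPM. Their part in the sum of the 8 genes was not tested.

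The other genes of the pathway were read from 5 lists of 59 genes in all (laminin chains, other network proteins, receptors, collagen processing, and proteases with their inhibitors). Of the 46 tested against the contractile and keratin list, 27 were higher in the high cells and 0 lower, beside the 14.9% and 8.99% of all genes tested given above. Among the laminin chains, Lamb2, the beta 2 chain, gave ratios of 1.21, 0.797, 1.88 and 1.64 and was counted higher, while Lama5, the alpha chain found in most epithelia, gave 2.26, 1.44, 1.64 and 1.27 and was not counted.

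Of the other network proteins 5 of 10 were higher. Tinagl1, a laminin-binding matrix protein, was lowest in library 2 (0.305 CPM), highest in library 3 (6.04 CPM) and gave ratios of 39.8, 159, 28.5 and 55.8 in the high cells. Col18a1 and Nid2, the second nidogen, were not counted. Nid2 was at 69.5, 72.2, 58.0 and 59.2 CPM, and fell less with the formative side than Nid1, with ratios of 0.616, 0.716, 0.690 and 0.716.

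Of the receptors 7 of 11 were higher. Itgb1, the beta chain shared by many matrix-binding integrins, rose in the high cells by 4.54, 4.85, 5.03 and 3.17 and on the formative side by 2.79, 1.56, 2.25 and 1.70. Itga7 gave 2.14, 12.1, 11.9 and 3.43 in the high cells. Itga6, an alpha chain of laminin receptors, gave 0.800, 1.23, 1.61 and 1.25 and was not counted. In collagen processing 6 of 13 were higher, but P4hb and Ppib, the genes with most UMIs there, gave only 1.18 to 1.58 and 1.33 to 1.84. P3h2, with the widest range of that list between libraries (0.0599 to 0.695 CPM), had too few UMIs for the rule. Serpinh1, the chaperone of folding collagen, is named after its values were seen. It was at 23.0, 10.2, 68.9 and 19.1 CPM and gave 12, 21.7, 18.7 and 8.55.

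Of the proteases and inhibitors 7 of 8 were higher. Bmp1, the procollagen C-proteinase, gave 81.8, 109, 59.5 and 24.0 in the high cells, Mmp14, a membrane-bound collagenase, 5.25, 3.57, 6.58 and 1.87, and the inhibitor Timp1 0.711, 2.48, 2.73 and 1.91. Over the 5 lists 10 of the 43 genes tested were higher on the formative side (9.44% of all genes) and 1 was lower (6.08%). That gene was P3h1, a collagen prolyl hydroxylase named here after its values were seen, with ratios of 0.367 to 0.663. On the cell cycle split 0 of the 43 passed in either direction.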

How the data were processed

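The authors prepared 4 libraries with the 10x Genomics 3′ v3 kit and aligned them to mm10 with Cell Ranger 6.1.2. They joined the libraries with its aggregation step, which by default equalises sequencing depth between libraries before deposit. The deposited values are UMI counts per gene and barcode from that joined matrix. The filter of the study was applied here: UMIs and detected genes at or above the library mean minus 1 SD and at most 10% mitochondrial UMIs. Doublets were not called. Cells over 2 times their library's median UMIs (1615 cells) were left out in an alternative.

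UMIs of kept cells were summed per library or range of cells and divided by their total (CPM) in Python 3.11.15 with numpy 2.4.6, scipy 1.17.1 and pandas 2.3.3. Totals were 166839268, 200180473, 172407338 and 174050451 UMIs in libraries 1 to 4, at which 3 counts equal 0.0150 to 0.0180 CPM. Intervals are exact 95% intervals (Poisson for levels, conditional binomial for ratios, Clopper-Pearson for shares of cells) that take in counting error alone, without variation from culture to culture. Genes with at least 100 UMIs over the sums compared were tested in libraries with at least 100 cells on both sides. The scripts were tested on simulated data. The naive share could not be given for 7 cells.

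The 8 genes and all lists were chosen with earlier results of these data known. Named genes outside the 8 are, per list, the 2 with most UMIs and the 1 with the widest range between libraries, and the 10 with the highest lowest correlation. One gene that this rule names is not reported here. Alternatives are given at the end.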

Additional observations from a re-analysis of the deposited data

How the results depend on the processing

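No paired analysis was possible because no source used here ties a library to a labelled sample, so the replicate numbers could not be used. No p-value was computed, and the limits below concern levels of single cultures.

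The 1.43-fold range of the sum of the 8 genes between libraries became 1.52 with size factors, 1.37 with all barcodes, 1.41 without the mitochondrial limit, 1.40 without cells of very high UMI count and 1.39 as a mean over cells. It was 1.14 in cells with a naive share of 0.75 or more, 1.39 below 100 CPM of the contractile and keratin list, 1.47 with both limits and 1.45 without the cells with endoderm factors described next, the last 3 chosen after seeing the data. Leaving out a library gave 1.20 to 1.43. The cause was not tested.

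The count of genes with at least 1.5-fold between libraries went from 7 to 4 with a threshold of 2 and to 4 to 7 on leaving out a library (4 without library 1). It was 5 with a naive share of 0.75 or more, 6 below 100 CPM of the contractile and keratin list and 5 with both limits. No share of all genes was taken beside this count in the alternatives, so these counts cannot be set against one. The count higher on the formative side went from 1 to 0 with a threshold of 2 (4.10% of all genes, against 9.44%). It went to 2 (Col4a1 and Col4a2) without cells at 500 CPM or more of the list (9.25%), and to 2 without the cells with endoderm factors (9.57%). Leaving out a library gave 1 to 2 (2 without library 4, 10.9%). The count lower on the formative side went from 2 to 1 (Lama1) with a threshold of 2 (3.03% of all genes, against 6.08%) and with quartiles (0.814%). It went to 3 (Fn1 added) without library 3 (7.02%) and without cells at 500 CPM or more of the list (6.44%). With a G2/M split, Col4a2 was counted lower as a mean over cells (1 gene, 0.147% of all genes) and without library 1 (range 0 to 1, 0.262%). The contractile and keratin count went from 4 to 6 (Lamb1 and Fn1 added) with a limit of 2000 (18.4% of all genes, against 14.9%) and without library 4, when it rests on library 3 alone (26.8%), to 5 (Lamb1 added) at a naive share of 0.5 or more (18.6%), and to 3 (Nid1 lost) with a threshold of 2 (7.69%) and with a minimum of 20 cells (10.9%). With all barcodes it was 3 over libraries 1 to 4 (10.5%), which then all had enough cells, but 4 over libraries 3 and 4 (14.4%). Without the endoderm-factor cells Nid1 was also lost (14.6% of all genes counted), with a log2 ratio of 0.55 in library 4. Without those cells the r of Col4a1 with Col4a2 in library 2 also fell below 0.1, to 0.0797. The ratio of Sparc in library 3 to library 1 turned to 0.767 below 100 CPM of the list and to 0.779 with the naive limit as well.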

Other observations

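A handful of cells carried UMIs of transcription factors or a receptor of the primitive endoderm, the tissue that lays down much of the basement membrane of the early embryo. UMIs of at least 2 of Gata4, Gata6, Sox17, Sox7, Foxa2 and Pdgfra occurred in 23 of the 31989 kept cells (3, 4, 10 and 6 in libraries 1 to 4), and UMIs of at least 3 in 5 cells, 4 of them in library 4. The factors and the number were chosen after the data were seen. Of the 23 cells, 15 had at least 500 CPM of the contractile and keratin list and 6 had over 2 times the median UMIs of their library.

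The 6 such cells of library 4 held basement membrane transcripts at high levels. Sparc was at 3791 CPM there (95% Poisson interval 3495 to 4105) against 100 CPM in the other cells of the library, Col4a1 at 1332 (1159 to 1524) against 7.79, Col4a2 at 776 against 3.12 and Lama1 at 388 (297 to 497) against 4.65 CPM. Lamb1 was at 294 against 34.0, Lamc1 at 432 against 37.7, Nid1 at 150.1 against 9.78 and Fn1 at 263 against 130.1 CPM. All 8 levels were thus higher in the sum of these 6 cells, Lama1 and Lamc1 included, and 5 of the 6 also had at least 500 CPM of the contractile and keratin list. The intervals cover counting error and not the spread between the 6 cells. Together the 6 cells held 213 UMIs of Col4a1 and 62 of Lama1. Without thinning, the most UMIs in 1 cell of library 4 were 102 and 39 for these genes. How the UMIs were shared among the 6 cells was not read.

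The 10 such cells of library 3 differed, with Lama1 at 5.30 CPM (0.642 to 19.2) against 5.39 CPM and Lamc1 at 47.7 against 44.1, but Col4a1 at 111 against 14.4 and Sparc at 689 against 183 CPM. In library 2 the 4 cells held Lama1 at 147 CPM (84.1 to 239) and Col4a1 at 386 CPM, and in library 1 the 3 cells held 0 UMIs of Col4a1 and 4 of Lama1. Over the 23 cells Pou5f1 was at 395 CPM against 770.0 CPM in all others, the trophectoderm list at 237 against 44.1 CPM, the fibroblast list at 58.5 against 6.82 CPM and the contractile and keratin list at 8841 against 320 CPM. Without them the correlation of Col4a1 with Col4a2 was 0.122, 0.0797, 0.342 and 0.158 in libraries 1 to 4, the largest drop being that of library 4, and the highest number of Col4a1 UMIs in a thinned cell of that library fell from 23 to 5. Whether these cells are endoderm, and whether doublets are among them, was not tested.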
